A study of Homo sapiens with 4 samples.

Results

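NFE2L2, which encodes the transcription factor NRF2, was examined together with 5 other regulators of the oxidative stress response (KEAP1, BACH1, MAFF, MAFG and MAFK) and 4 of its target genes (HMOX1, NQO1, TXNRD1 and SRXN1). These 10 genes were chosen by name from the 20033 protein-coding genes of GENCODE 44 on hg38. For each gene, every peak of either peak list that overlapped the gene or 20 kb on either side of it was taken. The peaks are those of MTF-1, the metal-responsive transcription factor, profiled by CUT&RUN, in which an antibody tethers a nuclease to a DNA-binding protein and the DNA released around it is sequenced. All cells were MDA-MB-231, an established human breast cancer line. Control cells were passaged in normal medium without treatment. Cadmium cells were passaged in cadmium sulfate, first at 5 µM and then at 10 µM for at least 10 passages, so the comparison is between long-adapted cells and their untreated counterparts. Each condition had 2 libraries, which the authors merged before peak calling, and the data are 1 list of peak positions per condition, with no height, score or read count.

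NRF2 is held in the cytoplasm by KEAP1, which hands it to a ubiquitin ligase for degradation. Electrophiles, oxidants and metals such as cadmium modify cysteines of KEAP1, and NRF2 then reaches the nucleus, pairs with a small MAF protein (MAFF, MAFG or MAFK) and binds antioxidant response elements (AREs). BACH1 is a heme-sensitive repressor that competes for the same elements with the same small MAF partners, and it has been studied as a pro-metastatic factor in breast cancer. The small MAF proteins have no activation domain of their own, and pairs made only of them repress. HMOX1 encodes heme oxygenase 1, which degrades heme and is strongly induced by cadmium in many cells. NQO1 encodes a quinone reductase, TXNRD1 the cytosolic thioredoxin reductase and SRXN1 sulfiredoxin, which restores overoxidized peroxiredoxins. MTF-1 itself binds metal response elements (MREs) through its zinc fingers and is best known for driving the metallothionein genes.

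The DNA under the peaks is shown for the sites on which the description below turns. Matches were sought on both strands to the ARE string TGACNNNGC, to the AP-1 string (TGACTCA or TGAGTCA) and to the MRE core (TGCACNC or TGCGCNC). A match to the ARE string is called an ARE here, and binding of NRF2 to it was not measured. An ARE of the form TGACTCAGC also holds the AP-1 string. In the lines below, the matches named with each line are in capitals, and coordinates are those of hg38. The first pair of lines comes from 2 peaks upstream of HMOX1 that both lists held, at chr22:35372007-35372126 and chr22:35377080-35377176, read on the minus strand with AREs in capitals. The first lies in no annotated exon, and the second overlaps an exon of a long noncoding RNA gene without a name (ENSG00000282041).
HMOX1, upstream site farther out: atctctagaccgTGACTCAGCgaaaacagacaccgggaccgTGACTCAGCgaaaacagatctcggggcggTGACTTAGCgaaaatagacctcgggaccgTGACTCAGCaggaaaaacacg
HMOX1, upstream site nearer: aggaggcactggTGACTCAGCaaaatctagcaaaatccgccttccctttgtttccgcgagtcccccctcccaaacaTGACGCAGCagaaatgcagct
The stretch from the farther site carried 4 AREs, each starting 29 bp after the last, and 3 of them also held the AP-1 string. The stretch from the nearer site carried 2 AREs that began 64 bp apart. Between these lay a peak present only in the cadmium list. The stretch around its AP-1 string, in capitals, is at chr22:35375233-35375279 on the plus strand, outside annotated exons.
HMOX1, gained upstream site: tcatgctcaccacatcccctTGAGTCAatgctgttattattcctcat
At NQO1, the ARE of the peak over the start (chr16:69726982-69727040, minus strand, in an exon of the divergent noncoding gene NQO1-DT) reads as follows.
NQO1, start site: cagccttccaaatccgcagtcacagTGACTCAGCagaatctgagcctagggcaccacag
The MANE Select start of TXNRD1 carried a pair of AREs close together. The stretch at chr12:104215668-104215791 is from the RefSeq promoter table (GRCh38.p14, plus strand, with 13 transcribed bases at its end), with both AREs in capitals, of which the second is on the minus strand and reaches the start.
TXNRD1, start site: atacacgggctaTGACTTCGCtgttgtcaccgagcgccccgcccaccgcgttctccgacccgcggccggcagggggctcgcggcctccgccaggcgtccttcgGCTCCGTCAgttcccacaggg
For the small MAF genes, the lines give 2 of the AREs downstream of the MAFG start (chr17:81926955-81927127, outside exons) and the ARE of the cadmium-only peak in an intron of MAFF (chr22:38208638-38208696), both on the plus strand.
MAFG, start site: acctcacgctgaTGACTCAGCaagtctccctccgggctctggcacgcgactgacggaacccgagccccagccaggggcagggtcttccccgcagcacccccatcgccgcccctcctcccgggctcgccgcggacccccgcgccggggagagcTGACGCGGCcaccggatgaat
MAFF, gained site: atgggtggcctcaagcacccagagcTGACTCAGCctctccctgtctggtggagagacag

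The control list held 69299 peaks covering 130.4 Mb and the cadmium list 60130 peaks covering 90.9 Mb, a ratio of 0.697. A control peak that shared no base with the cadmium list is called lost, a cadmium peak that shared none with the control list gained, and peaks that overlapped were merged into conserved sites. Of all control peaks 27.9% were lost and of all cadmium peaks 15.1% were gained. Peak bounds fall on bins of 200 bp, so a difference of 1 bin is the smallest step in width. Because the libraries were merged, no spread between replicates could be attached to any value here and no test between conditions was possible. Library depth is unknown from the lists, and its part in the smaller coverage of the cadmium list was not tested.

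MTF-1 peaks lay at the start of every member in both lists. A start-site peak is a peak within 1 kb of the start of the MANE Select transcript, the standard transcript of each gene. All 10 members had such a peak in the control list and all 10 in the cadmium list. Among all coding genes, 68.6% had a start-site peak in the control list, 66.9% in the cadmium list and 65.5% in both. In all 10 members the peak covered the start itself. No lost or gained peak lay within 1 kb of a member's MANE Select start, so the differences at starts were in the extent of the peak. The peak was wider in the cadmium list at KEAP1, BACH1, MAFF, HMOX1 and SRXN1, and wider in the control list at NFE2L2, MAFG, MAFK, NQO1 and TXNRD1. Among the 13131 coding genes with a start-site peak in both lists, it was wider in the cadmium list in 25.8% and in the control list in 61.2%. The median ratio of widths, cadmium to control, was 1.01 over the members and 0.867 over those 13131 genes.

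The largest relative widening was at HMOX1, from 999 bp in the control list to 1999 bp in the cadmium list, a ratio of 2.00 that lay at the 97.3 percentile of coding genes. The peak extended on both sides of the start, from chr22:35380601-35381599 to chr22:35380001-35381999. BACH1 went from 2399 to 3199 bp, all of it added upstream of the start, and SRXN1 from 2399 to 2799 bp, all of it added inside the gene. MAFF was 4999 bp wide in the control list and 5599 bp in the cadmium list, and KEAP1 2799 and 2999 bp. The narrowest start-site peaks were those of TXNRD1, with 799 bp in the control list and 399 bp in the cadmium list, both centred 21 bp inside the gene. The shorter TXNRD1 peak, chr12:104215601-104215999, still held the pair of AREs printed above. The peak was slightly narrower in the cadmium list at NQO1, from 4199 to 3799 bp, and at NFE2L2, from 3799 to 3599 bp, while that of MAFG went from 9799 to 6399 bp. MAFK had the widest of all, 13999 bp in the control list and 12799 bp in the cadmium list. The plot of start-site peaks shows these extents around each start.

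**Figure D1:**
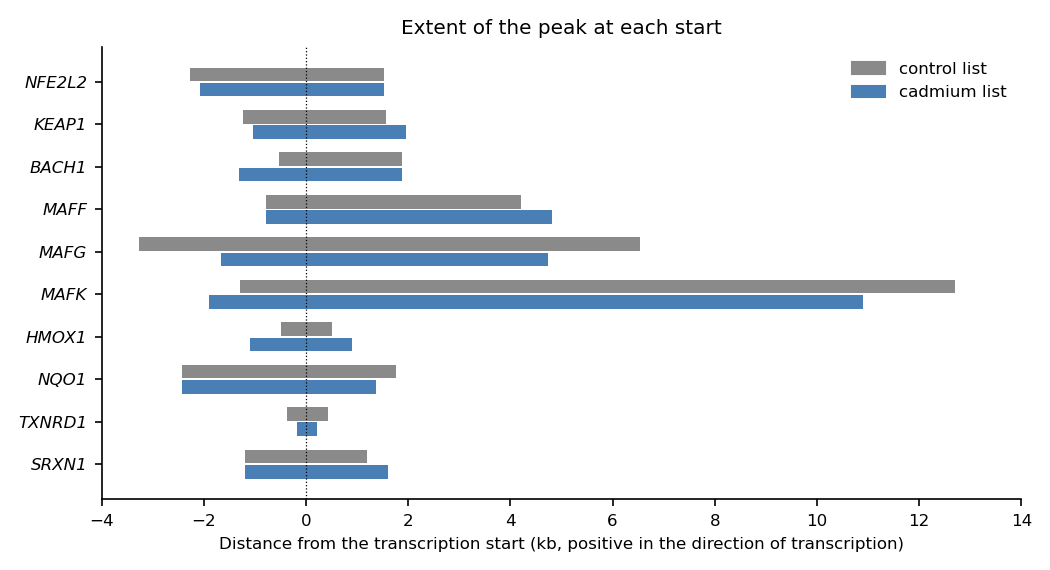
Extent of the peak over the transcription start of each of the 10 genes in the control list (grey) and the cadmium list (blue), in kb from the start of the MANE Select transcript and oriented with transcription (dotted line, the start). HMOX1 and BACH1 had a longer peak in the cadmium list, MAFG and TXNRD1 a shorter peak, and the peak of MAFK reached across most of the gene in both.

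Counted over the whole windows, the members held 71 control and 73 cadmium peaks, which fell into 56 conserved sites, 9 lost peaks and 11 gained peaks. These peaks covered 177231 bases in the control list and 170428 in the cadmium list, a ratio of 0.962. Bases of a peak that reached past the window were not counted. Over the 17316 coding windows covered in both lists, the ratio had a median of 0.762, with quartiles at 0.574 and 1.00. The member median was 0.958. More bases were covered in the cadmium list in 4 of the 10 windows, those of NQO1, HMOX1, MAFF and MAFG, against 22.9% of the coding windows. At MAFG (ratio 1.04) the start-site peak itself was narrower in the cadmium list. A peak across the edge of that window, nearest the start of the neighbouring gene MYADML2, was wider. The windows of MAFG and MAFK were covered far more densely than the other 8. Without them the sums were 101977 and 94775 bases, a ratio of 0.929. The 6 regulators went from 136652 to 132249 bases (ratio 0.968) and the 4 targets from 40579 to 38179 (ratio 0.941), so the split by role made little difference to the sums while the genes within each role differed among themselves. The plot of covered bases gives each window, and the plot of ratios sets the members against all coding windows.

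**Figure D2:**
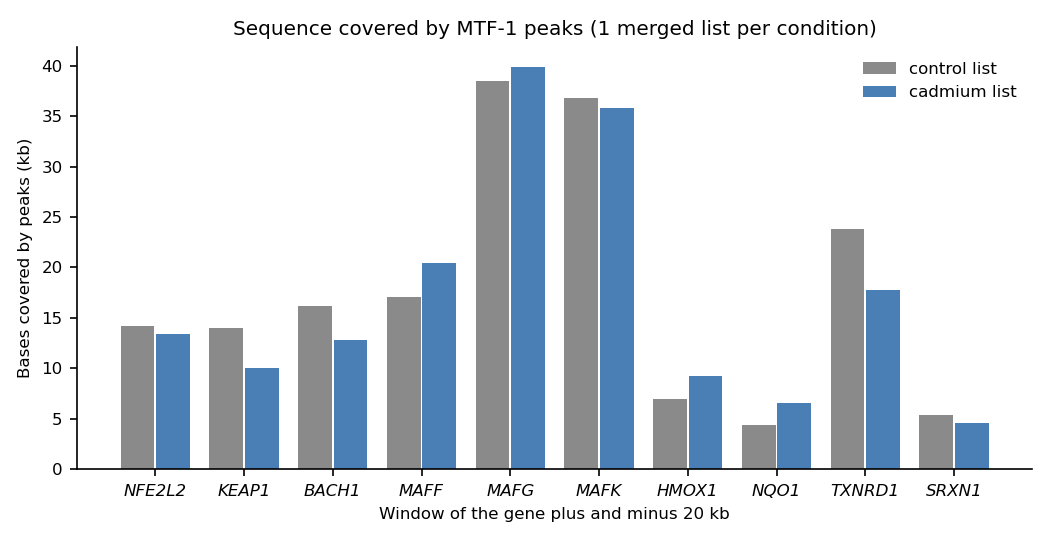
Bases covered by MTF-1 peaks, in kb, in the window of each gene (gene plus 20 kb on either side) in the control list (grey bars) and the cadmium list (blue bars), with 1 merged list per condition and therefore no error bars. MAFG and MAFK were covered far more than the others in both lists, and NQO1, HMOX1, MAFF and MAFG had more covered bases in the cadmium list.

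**Figure D3:**
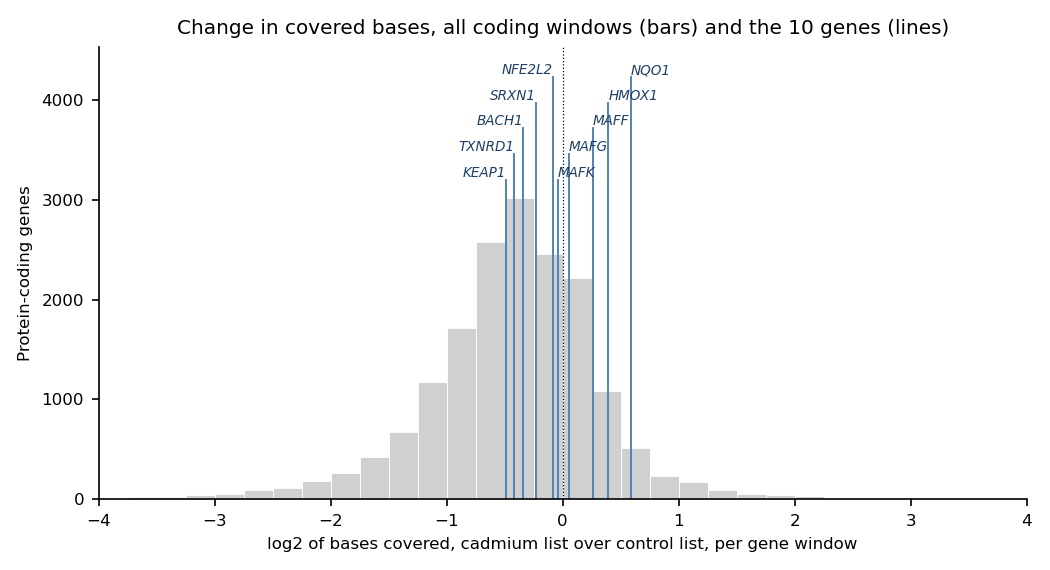
Number of protein-coding genes (bars, bins of 0.25 on the log2 scale) by the log2 ratio of bases covered in the cadmium list to the control list, with the 10 genes as blue lines and no difference as a dotted line. The bars run from -4 to 4. KEAP1, with the lowest ratio of the 10 (0.714), lay close to the middle of the distribution, and NQO1, with the highest (1.5), at the 94.4 percentile.

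NFE2L2 has a long gene model with alternative starts far upstream, and its window of 214090 bp held 10 control peaks and 11 cadmium peaks. Coverage was 14190 bases in the control list and 13389 in the cadmium list, a ratio of 0.944. The peak over the MANE Select start was nearly the same in both lists, chr2:177263201-177266999 in the control list and chr2:177263201-177266799 in the cadmium list. A second peak with identical bounds in both lists, chr2:177338001-177338799, had its centre 234 bp from another annotated NFE2L2 start. Another lay at the farthest NFE2L2 start and within 1 kb of a start of AGPS, a gene of ether lipid synthesis. It went from 1999 to 1399 bp. A peak in an intron 12.9 kb downstream of the start (799 bp) was lost. The gained peaks were a 399 bp peak 64.5 kb upstream, inside the longest gene model, and a 599 bp peak 54.2 kb downstream, beyond the gene, whose nearest coding start was that of HNRNPA3. The lost and gained peaks of NFE2L2 were thus all distal to that start and no wider than 799 bp. Of its 15 ARE strings inside peaks, 3 were in the start-site peak.

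KEAP1, the repressor of NRF2, had 7 peaks in each list, but its coverage went from 13993 to 9993 bases, the lowest ratio of the members (0.714, at the 43.5 percentile of coding windows). A single lost peak was wider than the whole difference. It was 4399 bp wide, chr19:10483201-10487599, and ran over the 3′ end of the gene with the last coding bases and the 3′ UTR. No cadmium peak shared a base with it. At the other end of the gene the start-site peak was 2799 bp wide in the control list and 2999 bp in the cadmium list, and the peak 2.44 kb upstream went from 399 to 1199 bp. The gained peak was 399 bp wide, 5.44 kb upstream of the start. A peak at the start of S1PR5, a sphingosine 1-phosphate receptor gene, also fell in the window, with 3599 bp in the control list and 3399 bp in the cadmium list. The start-site peak held 2 ARE strings and 8 MRE cores.

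BACH1 had the longest window, 476681 bp, with 12 control peaks and 14 cadmium peaks. They covered 16188 bases in the control list and 12786 in the cadmium list (ratio 0.790, at the 53.6 percentile). Over the MANE Select start the peak was wider in the cadmium list, as given above, while 5 of the other 10 conserved sites were narrower there. The largest single difference was a site 178 kb downstream of the start, where 1 control peak of 3599 bp corresponded to 2 cadmium peaks of 399 and 799 bp. Upstream of the start, inside the longest gene model, a 399 bp peak was gained 853 bp from another annotated BACH1 start, and a 599 bp peak was lost 42.6 kb from the MANE Select start. A second gained peak of 399 bp overlapped the coding end and 3′ UTR of the MANE Select transcript. Apart from the start, the BACH1 peaks were narrow, none wider than 1599 bp except the downstream control peak.

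The small MAF genes together went from 92281 to 96081 bases, a ratio of 1.04, but differed among themselves. In the MAFF window the bases covered went from 17027 to 20428 (ratio 1.20, at the 87.3 percentile). A single gained peak was wider than that whole difference, so the rest of the window had fewer bases in the cadmium list. This gained peak, of 4599 bp at chr22:38207601-38212199, lay in an intron 7.91 kb downstream of the start and was the widest of any member. It began just beyond the end of the start-site peak of the cadmium list and held 4 ARE strings, of which 1 is printed above. In the other direction 2 control peaks upstream of MAFF were lost, of 399 bp and 1199 bp, 14.4 kb and 4.59 kb from the start. The cadmium list also had a wider peak at the start of PLA2G6, the neighbouring phospholipase gene, 6999 bp where the control list had 4599 bp and a second narrow peak. A control peak of 5599 bp ran over the 3′ end of MAFF, while the cadmium peak that overlapped it, 3599 bp wide, began past the end of the gene, so the cadmium list had no peak over the 3′ end itself.

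MAFG and MAFK lay in stretches that peaks covered almost throughout. Peaks took up 77.8% of the MAFG window in the control list and 80.6% in the cadmium list, at the 99.6 percentile of coding windows for the control list. For MAFK these values were 70.3% and 68.4%, at the 99.2 percentile. Neither window had a lost peak, and the only gained peak was that of 1999 bp at the start of TMEM184A, 30.1 kb downstream of the MAFK start. Bounds moved nonetheless. The MAFG start-site peak of the control list, chr17:81921201-81930999, gave way to chr17:81923001-81929399 in the cadmium list. The 2 control peaks upstream of it, of 2799 and 5199 bp, were a single cadmium peak of 12199 bp that covered the start of PYCR1, an enzyme of proline synthesis. This cadmium peak also overlapped the upstream end of the control start-site peak. The merged site had 17797 bases in the control list and 18598 in the cadmium list. The neighbours with a start within 1 kb of a peak were SIRT7, PCYT2, NPB, ANAPC11, PYCR1 and MYADML2 at MAFG and TMEM184A at MAFK. Whether this dense coverage bears on the lack of lost peaks in both windows was not tested.

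HMOX1 had 2 gained peaks, more than any other of the 4 target genes. Its window of 53854 bp held 6 control peaks and 8 cadmium peaks, and all 6 control peaks were conserved. The covered bases went from 6994 to 9192 (ratio 1.31, at the 91.1 percentile). Upstream of the start both lists shared 4 peaks, centred in the control list at -16696, -14496, -8896 and -4096 bp. The peak at -8896 bp, chr22:35371401-35372999, was 1599 bp wide with the same bounds in both lists. Of the conserved sites made of 1 peak from each list, 16.1% had identical bounds in the whole series, and 8 of the 50 such sites in the member windows did. The 4 AREs printed above lie in this peak at -9073, -9044, -9015 and -8986 bp from the start, and a single further ARE string at -9497 bp. The peak at -4096 bp was 799 bp wide in the control list and 999 bp in the cadmium list, with AREs at -4000 and -3936 bp. Both clusters of AREs were therefore under a peak in control and in cadmium cells.

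The first gained HMOX1 peak, chr22:35374601-35375599, was 999 bp wide, lay at -5996 bp between those 2 shared peaks, and held 1 AP-1 string, 2 MRE cores and no ARE string. The second gained peak, chr22:35394801-35395999, was 1199 bp wide and lay 14.3 kb downstream of the start, just past the end of the gene. It held 2 ARE strings, 1 AP-1 string and 3 MRE cores, and its nearest coding start was that of MCM5, a subunit of the replicative helicase, at 4734 bp. A shared peak at the MCM5 start was narrower in the cadmium list, 1199 bp against 2399 bp. The widened HMOX1 start-site peak held no ARE string and no AP-1 string, and 2 MRE cores at -671 and -361 bp. The first of these cores lay only in the part that the cadmium peak added. The close-up of HMOX1 and NQO1 shows where the strings fall relative to the peaks.

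**Figure D4:**
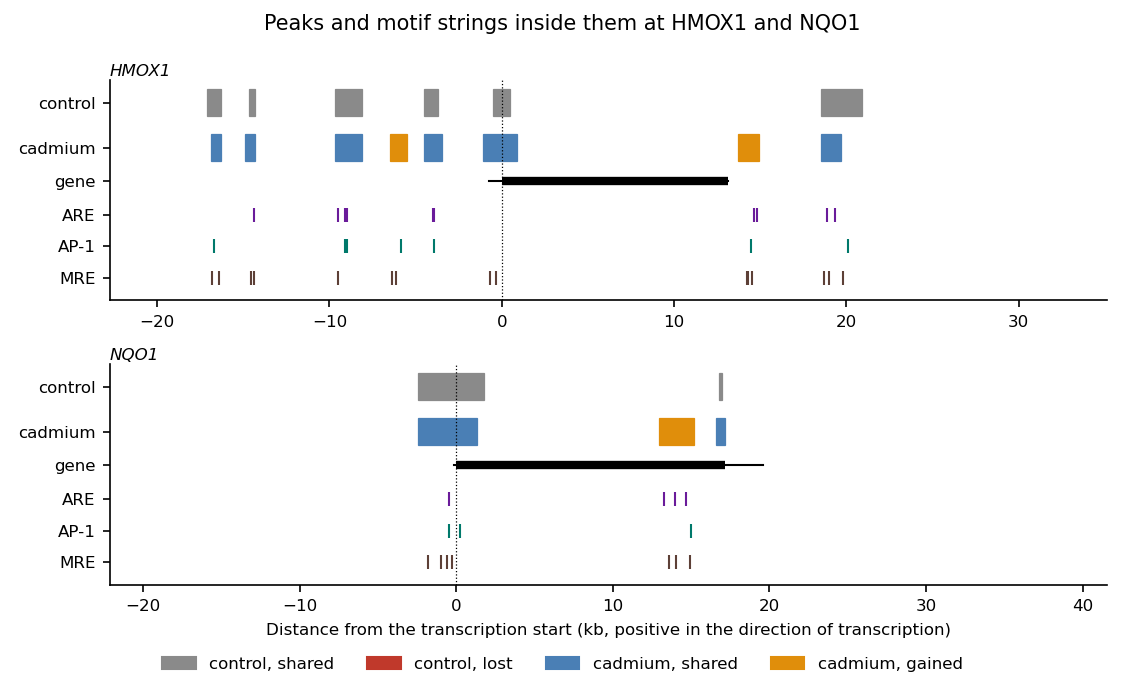
Peaks of the control list (grey) and the cadmium list (blue, gained peaks orange) in the windows of HMOX1 and NQO1, in kb from the start and oriented with transcription, with the gene as a line (MANE Select transcript thick) and ticks for ARE, AP-1 and MRE strings inside any peak. HMOX1 had a cluster of AREs in the shared peak 8.90 kb upstream, and NQO1 had 3 AREs in the gained peak inside the gene and 1 ARE in the shared peak over the start.

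NQO1 had few peaks, 2 in the control list and 3 in the cadmium list, in a window of 59673 bp. Coverage went from 4398 to 6597 bases, the highest ratio of the members (1.5). The gained peak, chr16:69711401-69713599, was 2199 bp wide and alone equalled the difference between the lists. It lay 14.1 kb downstream of the start, inside the gene, overlapped a coding exon of the MANE Select transcript, and held 3 ARE strings, 1 AP-1 string and 3 MRE cores. The shared peak at the 3′ UTR was 199 bp wide in the control list and 599 bp in the cadmium list. The start-site peak, chr16:69724801-69728999 in the control list and chr16:69725201-69728999 in the cadmium list, held the ARE printed above at -451 bp in both. So the upstream ARE of NQO1 was under an MTF-1 peak in both conditions, and the cadmium-only signal lay near the other end of the gene.

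TXNRD1 went the other way, with 11 control peaks and 7 cadmium peaks, 3 lost and none gained. Coverage was 23789 bases in the control list and 17793 in the cadmium list (ratio 0.748, at the 47.7 percentile). The lost peaks were 199 bp wide at 6.28 kb upstream, 1799 bp at 39.9 kb and 3399 bp at 78.9 kb downstream, the latter 2 in introns. A peak over a second annotated TXNRD1 start, centred 72.1 kb into the gene, was kept with 4199 bp in the control list and 3999 bp in the cadmium list. Of the 7 conserved sites, 6 had fewer covered bases in the cadmium list. The exception was a site 146 kb from the start, beyond the 3′ end, which had 399 bases in the control list and 3599 in the cadmium list. Relative to its width in the control list, the start-site peak of TXNRD1 was the most reduced of the members (ratio 0.499, a difference of 2 bins), and TXNRD1 had the most lost peaks, although its ratio of covered bases was close to the coding median of 0.762.

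SRXN1 had 3 peaks in each list, 5398 and 4597 bases (ratio 0.852, at the 61.4 percentile). The peak over the 3′ end went from 2799 to 1399 bp. A 2999 bp control peak at the starts of SCRT2, a neuronal transcription factor gene, and ENSG00000270299 was lost, but only 200 of its bases reached into the SRXN1 window. The gained peak was 399 bp wide, 7.40 kb upstream of the start. In the start-site peak an AP-1 string lay at -269 bp and the single match to the ARE string at 610 bp, inside the gene. The bases at the AP-1 string read TGAGTCAGC, which the ARE string TGACNNNGC cannot match.

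**Figure D5:**
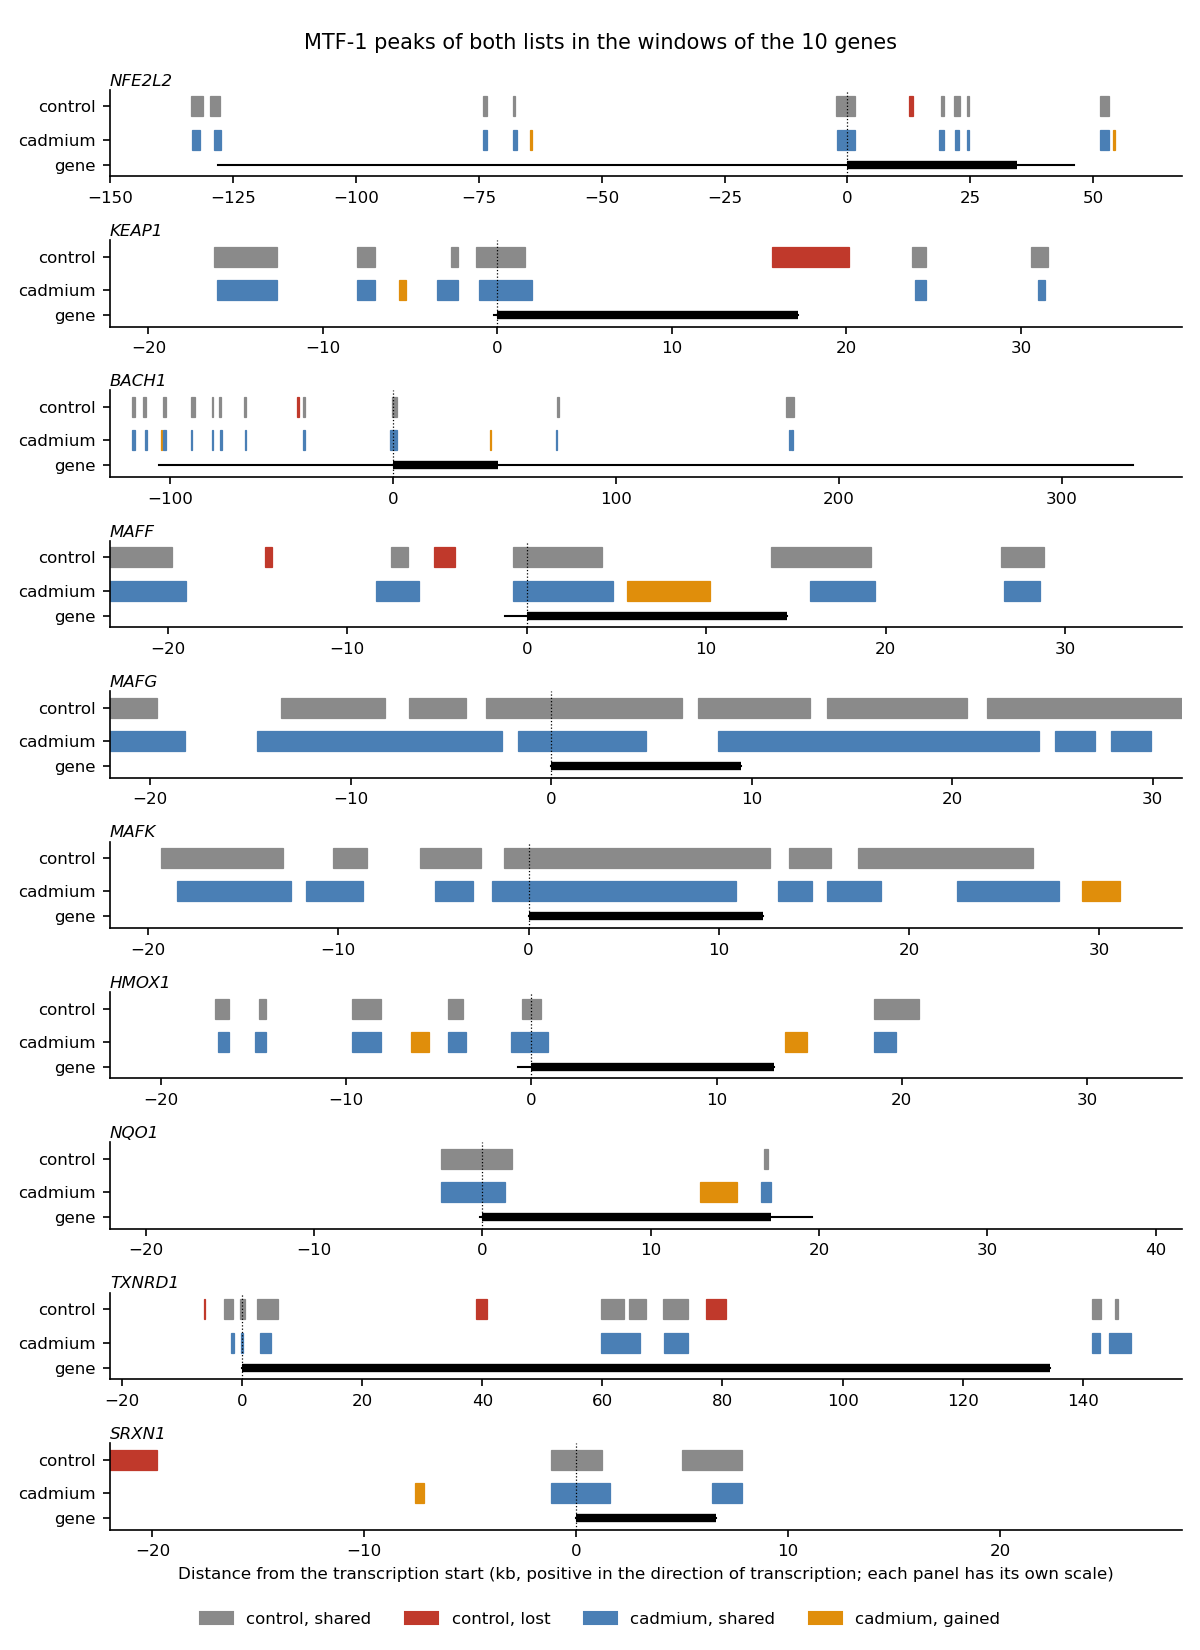
Peaks of the control list (upper track) and the cadmium list (middle track) in the windows of the 10 genes, in kb from the start and oriented with transcription, each panel on its own scale, with lost peaks in red, gained peaks in orange and peaks that overlap the other list in grey and blue. The lower line is the longest gene model with the MANE Select transcript thick. Lost and gained peaks lay away from the MANE Select starts of the 10 genes, and MAFG and MAFK were covered almost throughout.

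Across the members, 12.7% of the control peaks were lost (9 of 71), against 27.9% of all control peaks and 25.1% of the control peaks in the window of any coding gene. Of the cadmium peaks 15.1% were gained (11 of 73), against 15.1% of all cadmium peaks and 13.6% of those in coding windows. These shares depend on the rule of 1 shared base. When a peak had to be at least 50% covered by the other list to count as shared, 19 of the 71 control peaks (26.8%) and 21 of the 73 cadmium peaks (28.8%) of the members were unique, against 46.2% and 21.5% of the whole lists. With 1 shared base but without MAFG and MAFK the shares were 15.5% lost (9 of 58) and 16.9% gained (10 of 59). At least 1 lost peak was in 6 of the 10 windows and at least 1 gained peak in 8, against 46.0% and 31.1% of coding windows. Per 100 kb of window the members had 0.726 lost, 0.887 gained and 4.51 conserved sites, and coding windows together had 0.845, 0.437 and 2.95. The members thus had more gained and more conserved sites per length than coding windows in general and about as many lost peaks. The counts of gained and lost peaks were only 11 and 9. As a share of peaks under the rule of 1 shared base, gained peaks were near the background (15.1% against 13.6% in coding windows). Lost peaks were below it by that rule (12.7% against 25.1%). Lost peaks had a median width of 1199 bp (199 to 4399 bp) and gained peaks 599 bp (399 to 4599 bp). Of the 56 conserved sites, 29 had more bases in the control list, 19 had more in the cadmium list and 8 had the same bounds. For 2 lost and 3 gained peaks the nearest coding start was that of another gene.

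The share of member sites with an ARE string near the centre was close to that of all MTF-1 sites. In the 500 bp around the centre of each site, 19 of the 76 member sites (25.0%) held an ARE string, against 20.4% of all 77070 sites. By class these were 15 of 56 conserved, 3 of 11 gained and 1 of 9 lost sites. AP-1 strings were in 18 member sites (23.7%) against 24.8% of all sites, and in 2 of the 11 gained member sites (18.2%) against 32.6% of all gained sites. MRE cores were in 37 member sites (48.7%) against 33.9%, and in 8 of the 11 gained member sites (72.7%) against 30.6% of all gained sites. The 500 bp can reach past a narrow peak. At the gained KEAP1 peak of 399 bp the MRE core lay beyond the bounds of the peak. Strings of forkhead factors (ATAAACA or ATAAATA, or either with G as its first base) were in 18 member sites (23.7%) against 30.2%, and in 4 of the 9 lost member sites (44.4%) against 41.1% of all lost sites. The members' counts by class are small, and no test was made of them.

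Several AREs in the same central 500 bp were rarer. At least 2 ARE strings were in 5 of the 76 member sites (6.58%) against 2.49% of all sites, namely both upstream HMOX1 sites, the start sites of TXNRD1 and KEAP1, and an NFE2L2 intron site. At least 4 were in the central 500 bp of 39 of the 77070 sites (0.0506%), and of the members' sites the HMOX1 site 8.90 kb upstream was the only such site by that measure. Counted over whole sites, which run to 25999 bp in width, wide sites such as those at MAFG, MAFK and MAFF also held 4 or more. Per kb, AREs were denser inside the peaks than outside them in 8 of the 10 windows. The values were 1.13 inside and 0.439 outside at HMOX1, 0.915 and 0.309 at NFE2L2, and nearly equal at MAFF (0.690 and 0.675). The order was opposite at MAFG (0.577 and 0.682) and MAFK (0.583 and 0.774), where the sequence outside peaks came to only 4.40 and 7.75 kb. AP-1 strings were denser inside the peaks in every member window, for example 0.755 and 0.0925 at HMOX1. MRE cores were not. They were denser inside at TXNRD1, SRXN1, BACH1 and MAFK (2.22 and 1.94 at MAFK). At NQO1, MAFG, KEAP1, NFE2L2 and MAFF they were denser outside (0.366 inside and 0.652 outside at NFE2L2), and at HMOX1 nearly equal (1.42 and 1.43). Densities were not computed for other coding windows. GC content was also higher inside the peaks than in the rest of the window in all 10 members, for example 48.5% and 40.0% at NFE2L2, and its part in these densities was not tested. Of the 139 ARE matches in whole member sites, 13 overlapped an AP-1 match, an overlap that was not counted over all sites. Directly after CCTGGG, an arrangement that recurs in Alu repeats, a common mobile element, lay 12 of the 139 (8.63%). In the central 500 bp of all sites, a narrower stretch, this held for 908 of 17975 matches (5.05%). The HMOX1 site 8.90 kb upstream and the gained MAFF and SRXN1 peaks each held 1 of the 12, none of them printed above. In the RefSeq promoter table, where 8 of the 10 members matched 14 entries of 300 bases, 4 entries held an ARE (28.6%) against 13.3% of all 34943 entries. A gene can have several entries, and these belonged to KEAP1, MAFF and TXNRD1, the last at both of its entries. HMOX1 and MAFK had no matched entry. MRE cores were in 6 of the 14 (42.9%) against 29.5%, and AP-1 strings in 1 (7.14%) against 4.96%.

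Beyond these 10 genes, a list of 40 other genes of the pathway, 10 regulators and 30 targets, was examined in the same way. A start-site peak was present in both lists for 35 of the 40 (87.5%), against 65.5% of all coding genes, and in neither for 5. All 10 regulators and 25 of the 30 targets had such a peak. More bases were covered in the cadmium list in 8 of the 38 windows covered in both (21.1%), close to the 22.9% of coding windows, and their median ratio was 0.744. These windows held 41 lost and 17 gained peaks, and the whole lists 19369 and 9074, so lost peaks outnumbered gained peaks in both, while the members' windows held 9 and 11. GCLM, the modifier subunit of the enzyme that makes the first product of glutathione synthesis, had 4797 bases in the control list and 6398 in the cadmium list (ratio 1.33). GCLC, the catalytic subunit, had 15791 and 7994 (ratio 0.506). SLC7A11, the cystine importer that feeds glutathione synthesis, had 12391 and 3795, the lowest ratio (0.306) among genes with at least 2000 bases in each list. The subunits of 1 enzyme thus differed in direction. The other high ratios were those of OSGIN1, an oxidative stress-induced growth inhibitor (1.88), and CBR1, a carbonyl reductase (1.40). The other low ratios were those of BACH2, the relative of BACH1 (0.388), and EPHX1, an epoxide hydrolase (0.502).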

How the data were processed

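The authors trimmed the reads, aligned them to hg38 with Bowtie2, merged the libraries of each condition with SAMtools 1.8 and called broad peaks on the merged reads. The caller is Epic2 in the methods and SICER 0.0.50 in the submitters' processing notes, and no control library is named. The deposited files hold chromosome, start and end of each peak and a last column with 1 constant value, so their only unit is base pairs. Printed starts count from 1. Peaks were intersected with GENCODE 44 genes in Python 3.11.15, with 1 shared base as overlap, and plotted with matplotlib 3.10.9. Starts are those of MANE Select or Ensembl canonical transcripts. Percentiles and medians are over protein-coding genes. Motif strings were searched in hg38 on both strands. The classification was tested on simulated peaks. The members, the pathway list and the strings were chosen with earlier results of these data known. The text names all members, neighbours whose start lies within 1 kb of a peak, GCLM, GCLC, SLC7A11, and the 3 highest and 3 lowest ratios of the pathway list among genes with at least 2000 bases in each list. Signal tracks, expression and accessibility were not analysed here. The sequences of the gained peaks at NQO1 and SRXN1 are not reported here.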

Additional observations from a re-analysis of the deposited data

How the results depend on the processing

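No paired analysis was possible because the libraries of each condition were merged into 1 list before deposit, and for the same reason no library could be left out. A peak near the caller's threshold can be present or absent by a small difference in reads, and depth is unknown. Of 43 pairs of a result and an alternative, 31 stayed within 1.5 times the reported value. The number of members with a start-site peak was 9 to 10 in either list, with 9 when only peaks of at least 999 bp were counted. The control peak at the HMOX1 start, of exactly that width, was kept. That minimum also left 34 conserved sites. Windows of 50 kb on either side gave 14 lost and 17 gained peaks, 86 conserved sites, 287126 control and 258287 cadmium bases and 31 sites with an ARE string. Counting only peaks closest to a member's own start gave 105551 and 96150 bases. Requiring a peak to be at least 50% covered by the other list gave 19 lost and 21 gained peaks, and searching whole sites put an ARE string in 52. With A or G required directly before the ARE string, 15 sites held it near the centre. Of the printed AREs, the second at TXNRD1, the second at MAFG and that at MAFF have C there. The ratio of cadmium to control bases was 0.893 to 0.989 under the alternatives that apply to it. The window around the MANE Select transcript was chosen after seeing the data and gave 8 lost and 9 gained peaks and a ratio of 0.989.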
